A study of Homo sapiens with 2 samples.

Results

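The miRNAs described here are the mature arms of the miR-23/27/24 clusters, a pair of paralogous gene clusters that each encode a miR-23, a miR-27 and a miR-24. The data come from 22Rv1, an established cell line of human prostate cancer grown in RPMI1640 medium, with 1 array for cells that had received 25 µM luteolin for 48 h and 1 array for untreated cells of the same 48 h. Luteolin is a plant flavone. Members were taken by their probe names on the Toray 3D-Gene miRNA array: the 3p arms hsa-miR-23a-3p, hsa-miR-23b-3p, hsa-miR-27a-3p, hsa-miR-27b-3p and hsa-miR-24-3p, and 4 of the 5p arms, hsa-miR-23a-5p, hsa-miR-27a-5p, hsa-miR-27b-5p and hsa-miR-24-2-5p, which made 9 of the 2565 miRNA probes. With 1 array per condition there was no replicate and hence no test between them, and every difference below is one between these 2 arrays.

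In animals the 3 miRNAs of such a cluster are cut from a shared primary transcript by the nucleases Drosha and Dicer, and a strand of each duplex, usually the 3p arm here, is loaded into Argonaute and pairs with target mRNAs mainly through its seed. MiR-23 is known to repress glutaminase, and MYC is known to repress the miR-23 genes. MiR-27 is known to act on FOXO1 and on PPARG, the regulator of fat cell differentiation, and miR-27a has been reported to be raised by androgen in prostate cancer cells. MiR-24 is known to act on cell cycle genes such as E2F2 and MYC.

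The mature sequences of the 9 members and of the 3p relative miR-23c are given first, since they show which members share a seed and how little the paralogs differ. They come from RefSeq (GRCh38.p14), where 9 of 9 members matched by name. Each is written 5′ to 3′ in lower case, with the seed, bases 2 to 8, in capitals.
hsa-miR-23a-3p: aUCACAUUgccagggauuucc
hsa-miR-23b-3p: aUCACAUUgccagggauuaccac
hsa-miR-23c: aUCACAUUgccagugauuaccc
hsa-miR-27a-3p: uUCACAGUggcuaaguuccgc
hsa-miR-27b-3p: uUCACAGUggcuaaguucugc
hsa-miR-24-3p: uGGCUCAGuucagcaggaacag
hsa-miR-23a-5p: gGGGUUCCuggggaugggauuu
hsa-miR-27a-5p: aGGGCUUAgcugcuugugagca
hsa-miR-27b-5p: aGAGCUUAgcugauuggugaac
hsa-miR-24-2-5p: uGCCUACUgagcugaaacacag

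The 3p arms thus held 3 seeds. Counted from the 5′ end, the miR-23 and miR-27 seeds differed by a single base, U7G, while the miR-24 seed was unlike both. Within a pair the paralogs were nearly the same RNA: hsa-miR-23a-3p and hsa-miR-23b-3p differed over 21 compared bases at U19A alone, with hsa-miR-23b-3p longer by its last bases (23 against 21), and hsa-miR-27a-3p and hsa-miR-27b-3p differed at C19U alone. How far the probes of a pair also bind the other paralog was not tested. The probe for hsa-miR-23c, the further array entry with a member's 3p seed, stood at G14U and U19A from hsa-miR-23a-3p. The 5p arms were less alike, with 14 of 22 bases shared between hsa-miR-27a-5p and hsa-miR-27b-5p.

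The genes lie on different chromosomes. MIR23A, MIR27A and MIR24-2 span 373 bases on the minus strand at chr19:13836287-13836659 (GRCh38.p14), within the long noncoding RNA gene MIR23AHG. MIR23B, MIR27B and MIR24-1 span 881 bases on the plus strand at chr9:95085208-95086088, within the span of the protein-coding gene AOPEP. Both MIR24 genes give the same hsa-miR-24-3p, so its probe reads the sum of both clusters, as the hairpins show with that arm in capitals.
MIR24-2: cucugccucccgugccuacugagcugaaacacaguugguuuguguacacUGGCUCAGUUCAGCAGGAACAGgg
MIR24-1: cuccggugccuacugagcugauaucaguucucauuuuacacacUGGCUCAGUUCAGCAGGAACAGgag
The hairpins differ in their 5p arms, and only that of MIR24-2 is a member, at bases 13 to 34 of the hairpin.

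All 5 of the 3p arms were well above background on both arrays, and the 5p arms were at or near it. A miRNA counted as detected above the mean of the blank spots plus 2 SD, a limit of 67.3 units of raw intensity on the luteolin array and 84.0 units on the control array. A stricter mark was the brightest of 32 Negative Control spots, at 69.4 units on the luteolin array and 93.7 units on the control array. All 5 of the 3p arms passed both marks on both arrays, whereas 701 of 2565 miRNAs (27.3%) were detected on both arrays and 310 passed the stricter mark on both. Signals of different probes are not compared as abundances here, since probes differ in how they bind.

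Hsa-miR-23a-3p gave 222 units of raw intensity on the luteolin array and 201 units on the control array, and hsa-miR-23b-3p gave 209 units on the luteolin array and 217 units on the control array. Hsa-miR-27a-3p gave 164 units on the luteolin array and 143 units on the control array, and hsa-miR-27b-3p gave 112 units on the luteolin array and 106 units on the control array. Hsa-miR-24-3p gave 160 units on the luteolin array and 177 units on the control array. In raw intensity, both miR-27 arms and hsa-miR-23a-3p were brighter after luteolin, and hsa-miR-23b-3p and hsa-miR-24-3p were dimmer. The blank spots also averaged less, 66.2 units on the luteolin array against 81.0 units on the control array. With the blank mean subtracted, hsa-miR-23b-3p was brighter after luteolin, at 142 units on the luteolin array and 136 units on the control array. Hsa-miR-24-3p was then nearly level, at 93.9 units on the luteolin array and 95.9 units on the control array. The other 3p arms stayed brighter after luteolin.

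Of the 5p arms, which are usually the discarded strand, hsa-miR-24-2-5p was the 1 detected on both arrays, with 69.3 units of raw intensity on the luteolin array and 87.9 units on the control array. Both values lay below the brightest Negative Control spot of their array. Hsa-miR-23a-5p, at 69.4 units on the luteolin array and 83.9 units on the control array, was detected on the luteolin array alone, where it exceeded that spot by less than the SD of the blanks (0.591 units). Hsa-miR-27a-5p, at 66.7 units on the luteolin array and 82.1 units on the control array, and hsa-miR-27b-5p, at 66.0 units on the luteolin array and 81.6 units on the control array, were below the detection limit on both. No fold change is given for these 3 arms.

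**Figure D1:**
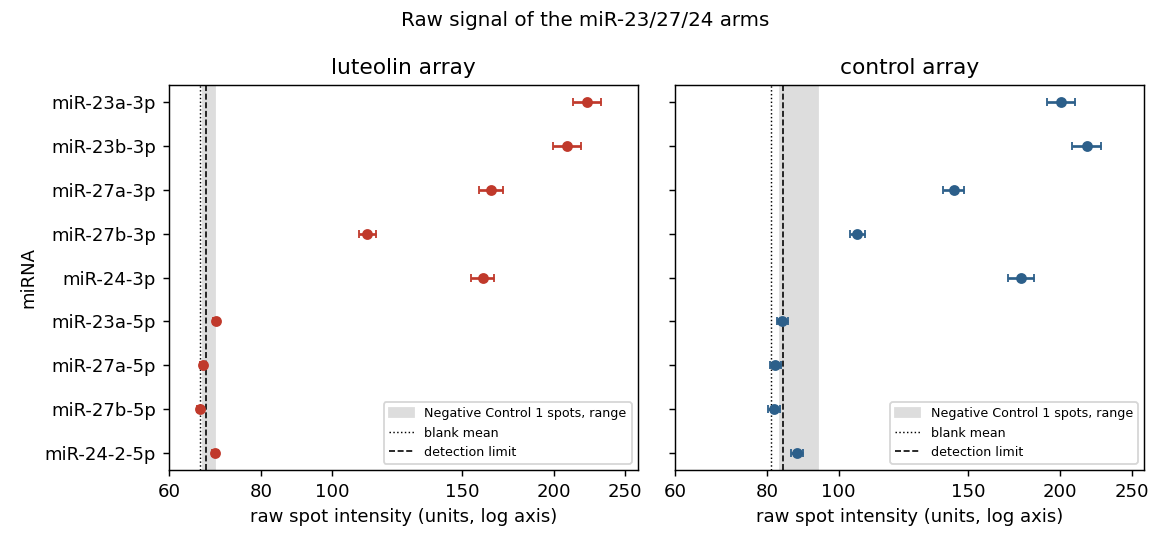
Raw spot intensity (units, log axis) of the 9 arms on the luteolin array (left) and the control array (right). Points are single spots with the estimated error of a spot (1 SE), the dotted line is the blank mean, the dashed line is the detection limit and the grey band is the range of the Negative Control 1 spots; the 3p arms lie to the right of the band on both arrays and the 5p arms lie at or near it.

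The luteolin array was compared with the control array to see how these arms stood after treatment. Ratios are given on the authors' scale, which is the blank-subtracted intensity times a factor for each array. On that scale all 5 of the 3p arms were higher on the luteolin array, with log2 ratios of 0.58 to 1.47 and a median of 0.99, and the miR-27 pair stood highest. The error beside a ratio, written as ±, is a standard error from the SD of the blank spots and the spread between repeated spots of 5 control probes (coefficients of variation of 6.23% on the luteolin array and 7.34% on the control array). It covers error between spots of an array and leaves out culture and array variation.

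Hsa-miR-27b-3p, from chromosome 9, stood at 210 on the luteolin array and 76.2 on the control array, 2.76-fold higher after luteolin (log2 ratio 1.47 ± 0.16). Hsa-miR-27a-3p, its chromosome 19 paralog, stood at 455.0 on the luteolin array and 189 on the control array, 2.41-fold higher after luteolin (log2 ratio 1.27 ± 0.14). These were the members past the size rule of a log2 ratio of 1 or more, which made 2 of the 6 members detected on both arrays, where 13.4% of all 701 miRNAs detected on both arrays were past it. Members at a log2 ratio of -1 or less numbered 0 of 6, against 5.14% of the 701.

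Hsa-miR-23a-3p lay at the edge of the size rule, at 722 on the luteolin array and 363 on the control array, with a log2 ratio of 0.99 ± 0.14. Hsa-miR-23b-3p stood at 659 on the luteolin array and 414 on the control array, with a log2 ratio of 0.67 ± 0.14. Hsa-miR-24-3p had the smallest ratio of the 3p arms, with 435 on the luteolin array, 291 on the control array and a log2 ratio of 0.58 ± 0.14. On this scale all 3 were higher on the luteolin array by more than their spot error without passing the size rule. The direction of 2 of them turned elsewhere, to -0.03 for hsa-miR-23b-3p with a normexp background, an offset of 50 or 16 and quantile normalization, and to -0.03 for hsa-miR-24-3p with no scaling. The listed levels of hsa-miR-24-2-5p, 14.7 on the luteolin array and 20.9 on the control array, give a log2 ratio of -0.50 ± 0.43, whose size is not defined because both signals lay below the brightest Negative Control spot.

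Over the 6 members detected on both arrays the median log2 ratio was 0.83, against 0.00 over the 701, a value that the authors' scaling fixes. Among the 310 miRNAs above every Negative Control spot on both arrays the 5 members had a median of 0.99, against 0.04 over the 310. Of the 310, 18.4% were at least 2-fold higher after luteolin and 0.645% at least 2-fold lower, so 2 of 5 members higher and 0 of 5 lower stand beside 57 and 2 of 310. Of the 701, 95.7% had a lower ratio than hsa-miR-27b-3p, 92.7% a lower one than hsa-miR-27a-3p, 86.4% than hsa-miR-23a-3p, 79.0% than hsa-miR-23b-3p and 75.3% than hsa-miR-24-3p. Among the 310 the shares were smaller, in the same order 93.9%, 89.7%, 81.3%, 75.2% and 72.9%. The 5 other miRNAs above every Negative Control spot with the ratios nearest to the members' median were hsa-miR-6808-5p, hsa-miR-1260b, hsa-miR-4319, hsa-miR-107 and hsa-miR-30c-5p, at log2 ratios of 0.80 to 0.89, a likeness that rests on 2 arrays. Ratios of this size were not particular to the members. Hsa-miR-17-5p stood at 0.95, hsa-miR-106a-5p at 0.98 and hsa-miR-20a-5p at 1.12, while hsa-miR-200c-3p stood at 0.14 and hsa-miR-92a-3p at 0.10.

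**Figure D2:**
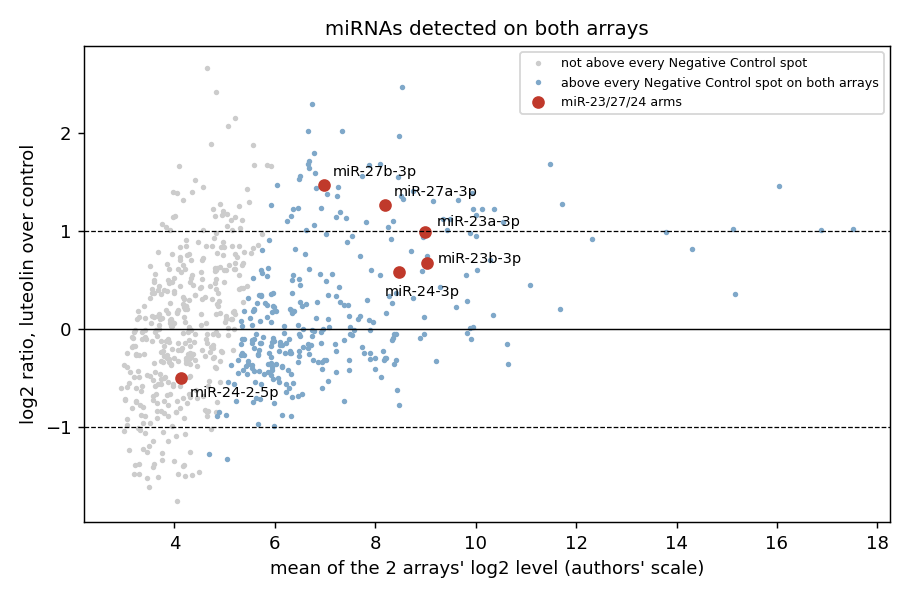
Log2 ratio of luteolin over control against the mean log2 level of both arrays on the authors' scale, for the 701 miRNAs detected on both. Red points are the 6 members, blue points other miRNAs above every Negative Control spot on both arrays and grey points the rest, with dashed lines at 1 and -1; the 3p arms lie between 0.58 and 1.47.

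On the authors' scale the miR-27 pair averaged a log2 ratio of 1.37 and the miR-23 pair 0.83, whereas the chromosome 19 arms (23a and 27a) averaged 1.13 and the chromosome 9 arms (23b and 27b) 1.07. With a normexp background, an offset of 50 and quantile normalization, called the offset scale, the miR-27 pair averaged 0.47 and the miR-23 pair 0.13, and the chromosome 19 arms averaged 0.40 and the chromosome 9 arms 0.21. The gap between seeds was the wider one on both scales, by less on the offset scale, and was not tested. A difference between the log2 ratios of a pair of miRNAs has the same value under any scaling by a factor per array, since the factor cancels. Of the 10 pairs of 3p arms, 6 differed by more than 2 SE of spot error. The share of such pairs among all miRNAs was not computed. The count therefore does not show that these arms differed more than other miRNAs do. These 10 values are descriptions of the 2 arrays, with no p-value.

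Hsa-miR-27b-3p exceeded hsa-miR-24-3p by 0.89 ± 0.22 in log2 ratio and hsa-miR-23b-3p, encoded in the same cluster, by 0.79 ± 0.22. Hsa-miR-27a-3p exceeded hsa-miR-24-3p by 0.69 ± 0.20 and hsa-miR-23b-3p by 0.60 ± 0.20. These 4 differences were each beyond 2 SE. On the offset scale, where no factor cancels, they were smaller: 0.31 for 27b minus 24, 0.47 for 27b minus 23b, 0.37 for 27a minus 24 and 0.53 for 27a minus 23b. Hsa-miR-23a-3p lay between, 0.47 ± 0.22 below hsa-miR-27b-3p and 0.41 ± 0.20 above hsa-miR-24-3p, both only just past 2 SE, and the difference from hsa-miR-27b-3p no longer passed when the SD of the Negative Control 1 spots replaced that of the blanks. On the offset scale these were 0.15 for 27b minus 23a and 0.16 for 23a minus 24.

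On the authors' scale paralogs did not differ by more than 2 SE of spot error. The difference of hsa-miR-27b-3p minus hsa-miR-27a-3p was 0.20, with an interval of 2 SE either way of -0.24 to 0.63, and that of hsa-miR-23a-3p minus hsa-miR-23b-3p was 0.32, with an interval of -0.07 to 0.72. Hsa-miR-23a-3p and hsa-miR-27a-3p, neighbours in the chromosome 19 cluster, differed by 0.28 for 27a minus 23a, with an interval of -0.13 to 0.68. Hsa-miR-23b-3p minus hsa-miR-24-3p was 0.09, with an interval of -0.31 to 0.49. These intervals leave room for a difference in either direction and do not show that the arms responded alike. On the offset scale 27b minus 27a turned to -0.06, 27a minus 23a was 0.21 and 23b minus 24 turned to -0.16. The difference of 23a minus 23b was 0.32 there, with hsa-miR-23a-3p at 0.29 ± 0.10 and hsa-miR-23b-3p at -0.03 ± 0.10. No error of a difference was computed on the offset scale, so the rule of 2 SE was not applied there.

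**Figure D3:**
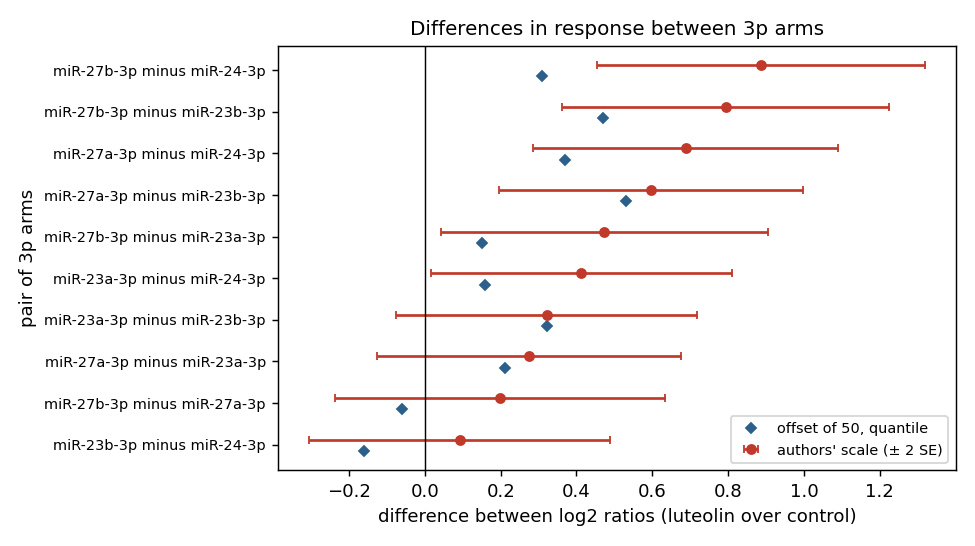
Differences between the log2 ratios (luteolin over control) of the 10 pairs of 3p arms. Red points with bars of 2 SE of spot error are on the authors' scale and blue diamonds are from the offset scale; the pairs of a miR-27 arm with hsa-miR-24-3p or hsa-miR-23b-3p lie at 0.60 to 0.89 on the authors' scale and above 0 on both scales.

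The order of spot signals within an array gives a view that no factor can change. By raw signal among the 2565 probes, hsa-miR-27b-3p stood at place 104 on the luteolin array and 190 on the control array, and hsa-miR-27a-3p at place 58 on the luteolin array and 94 on the control array. Hsa-miR-23a-3p stood at place 39 on the luteolin array and 50 on the control array, and hsa-miR-24-3p at place 61 on the luteolin array and 66 on the control array. Hsa-miR-23b-3p held nearly the same place, 45 on the luteolin array and 44 on the control array. Both miR-27 arms thus stood higher in the order on the luteolin array, while hsa-miR-23b-3p stood 1 place lower there.

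How large the ratios were, and for the lower arms their direction, depended on how the arrays were set against each other. On the authors' scale 94 of the 701 were at least 2-fold higher after luteolin and 36 at least 2-fold lower, against 282 and 0 with scaling on the spike-in control spots, 52 and 75 with 75th percentile scaling and 22 and 165 with no scaling. The median of the 701 moved with it, to 0.81 with spike-in scaling, -0.26 with 75th percentile scaling, -0.61 with no scaling and 0.32 without the authors' further adjustment. The members' median stayed 0.83 above that of the 701 under each of these, because a factor shifts all miRNAs alike. The spike-in spots averaged 3428 units above the blanks on the luteolin array and 9186 units on the control array. Members at least 2-fold higher numbered 5 of 6 with spike-in scaling, where 40.2% of the 701 were, 3 without the adjustment (20.5% of the 701), 2 with 75th percentile scaling (7.42%), 1 with the mean of the Negative Control spots as background (20.7% of 637) and 0 with no scaling (3.14%). Members at least 2-fold lower numbered 0 with spike-in scaling (0% of the 701) and 0 with 75th percentile scaling (10.7%). With no scaling there was 1, the dim hsa-miR-24-2-5p, where 23.5% of the 701 were.

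The offset scale pulls ratios of dim spots towards 0. Ratios of bright spots differed on it too, with a median of -0.07 over the 310 miRNAs above every Negative Control spot, against 0.04 on the authors' scale. Errors given for the offset scale were computed from values before quantile normalization. On that scale hsa-miR-27a-3p stood at 0.50 ± 0.08, hsa-miR-27b-3p at 0.44 ± 0.06, hsa-miR-23a-3p at 0.29 ± 0.10 and hsa-miR-24-3p at 0.13 ± 0.09. Hsa-miR-23b-3p turned to -0.03 ± 0.10 there, and 0 of 6 members passed the size rule, where 0.143% of the 701 did. With an offset of 16 it was again 0 of 6, beside 0.571% of the 701. Hsa-miR-24-3p stood at -0.03 with no scaling. Hsa-miR-27a-3p, hsa-miR-27b-3p and hsa-miR-23a-3p had a ratio above 0 under each of the 8 scalings run. The share of all miRNAs detected on both arrays with a ratio above 0 ran from 22.7% with no scaling to 91.0% with spike-in scaling. Scalings that differ only by a factor are not separate checks.

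**Figure D4:**
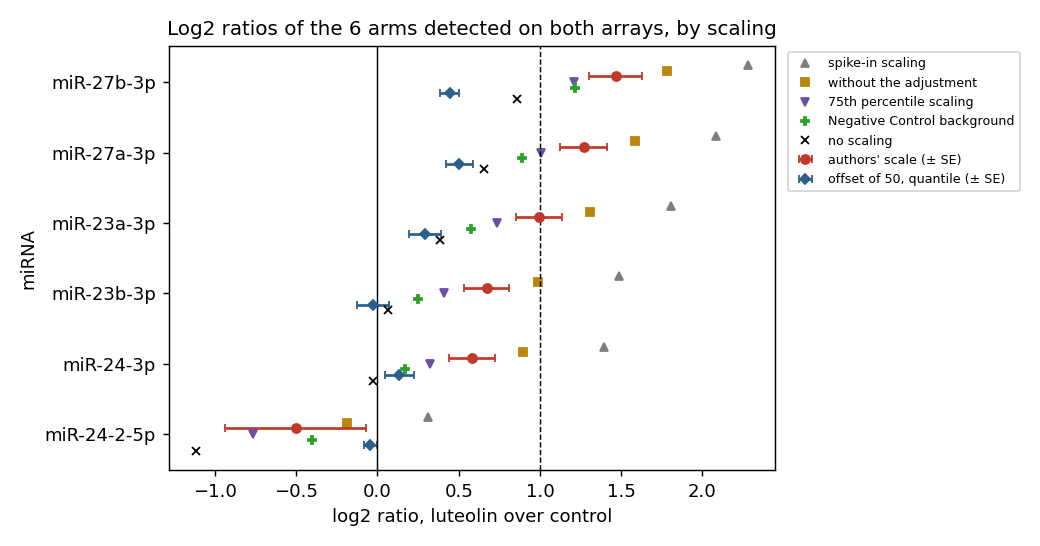
Log2 ratio of luteolin over control for the 6 members detected on both arrays, under 7 of the scalings. Bars are 1 SE of spot error, shown for the authors' scale and, from values before quantile normalization, for the offset scale. The dashed line marks a log2 ratio of 1. Both miR-27 arms and miR-23a-3p lie to the right of 0 throughout, while miR-23b-3p is at -0.03 on the offset scale and miR-24-3p at -0.03 with no scaling.

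Of 16 related arms and neighbouring miRNAs, from lists chosen with earlier results of these data known, 6 were detected on both arrays (37.5%, beside 27.3% of all miRNAs), and 3 of these exceeded every Negative Control spot on both. Hsa-miR-23c, which shares the miR-23 seed and is encoded on the X chromosome, gave 74.4 units of raw intensity on the luteolin array and 92.1 units on the control array. Its control signal lay below the brightest Negative Control spot there, so no fold is given. The same held for hsa-miR-128-3p, whose seed is that of miR-27 moved by 1 base, at 70.6 units on the luteolin array and 85.5 units on the control array. The 2 other 5p arms of the clusters, hsa-miR-23b-5p and hsa-miR-24-1-5p, were detected on both arrays in 0 of 2 cases, with hsa-miR-24-1-5p detected on the luteolin array alone. The arms of miR-3074, whose gene overlaps MIR24-1 over 68 bases on the opposite strand, were below the detection limit on both arrays.

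On chromosome 19, the arms of miR-181c and miR-181d, whose genes begin 38.0 kb from MIR23A, were detected on both arrays in 0 of 4 cases, with hsa-miR-181c-5p listed on the control array alone. On chromosome 9, the let-7a, let-7f and let-7d genes lie 906 kb or more from MIR23B. Of their 6 arms, 4 were detected on both arrays and 3 were at least 2-fold higher after luteolin on the authors' scale, where 13.4% of the 701 were, with a median log2 ratio of 1.16 over those 4. On the offset scale the median was 0.56 and 0 of the 4 were at least 2-fold higher. Hsa-let-7f-1-3p was detected on the luteolin array alone. Since let-7a and let-7f also have genes elsewhere, their probes do not read this locus alone. The difference between these lists and the miR-23/27/24 arms was not tested.

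Because the miR-23a and miR-23b clusters are also active in endothelial and myeloid cells, markers of other cell types were read as well. The prostate epithelial list had 4 of 6 members above every Negative Control spot on both arrays, hsa-miR-141-3p, hsa-miR-200c-3p, hsa-miR-200b-3p and hsa-miR-375, beside 310 of all 2565 miRNAs. Of its other members, hsa-miR-200a-3p was detected on the luteolin array alone and hsa-miR-429 on neither array. On the authors' scale hsa-miR-141-3p had a log2 ratio of 1.96 ± 0.14, hsa-miR-375 one of 0.35 ± 0.21, hsa-miR-200c-3p one of 0.14 ± 0.14 and hsa-miR-200b-3p one of 0.00 ± 0.16. Of the endothelial list (miR-126 arms) 0 of 2 were detected on both arrays, of the myeloid list (miR-223 and miR-142 arms) 0 of 3, and of the stromal and muscle list 0 of 5 on the array. Hsa-miR-142-3p of the myeloid list was detected on the control array alone. Since 27.3% of all miRNAs were detected on both arrays, counts from lists this short say little. Of the erythroid list 1 of 2 was detected, hsa-miR-451a, at a log2 ratio of -0.85 ± 0.28. Its control signal, 94.1 units, lay barely above the brightest Negative Control spot of that array (93.7 units). With the SD of the Negative Control 1 spots its error was 0.40.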

How the data were processed

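Total RNA labelled with Cy5 was hybridised to 1 single-colour array per condition, with 1 spot per miRNA. Per the file headers, the authors deposited spot intensity as raw data, after background subtraction and after global normalization, and for the luteolin array after a further adjustment. Recomputation gave the steps: subtraction of the blank mean (trimmed by 5% at each end), a listing limit of 2 SD above it, which returned the listed set of each array over all 2565 miRNAs, a factor that sets the median of listed miRNAs to 25, and for the luteolin array a further factor of 0.803, the median control over luteolin ratio of the 701 miRNAs listed on both. Why it was applied is not given in the sources used.

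Differences are luteolin over control on the log2 scale, called at an absolute value of 1 or more. Alternatives were normexp background correction with an offset of 50 or 16 and quantile normalization (limma 3.58.1, R 4.3.3), 4 other scalings, the Negative Control mean as background and 2 filters. Other work used Python 3.11.15, numpy 2.4.6 and pandas 2.3.3. Named miRNAs were the members, other arms, seed or locus relatives, neighbours, cell type markers and the 5 nearest in ratio. The members and lists were chosen with earlier results of these data known. The procedure was run on simulated arrays whose spot error was drawn from the same blank SD and control probe spread. Such arrays cannot check the size of that error, nor culture and array variation. The number of arrays limits the precision.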

Additional observations from a re-analysis of the deposited data

How the results depend on the processing

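The count of 2 members at least 2-fold higher after luteolin is set beside the share of all miRNAs (13.4% of the 701). It was also 2 with 75th percentile scaling (7.42%) and with members above every Negative Control spot only (18.4% of 310). It was 2 as well with undetected members at the detection limit, where no share was computed, and 3 without the authors' adjustment (20.5%). It was 0 with an offset of 50 (0.143%), 0 with an offset of 16 (0.571%) and 0 with no scaling (3.14%). With the Negative Control mean as background it was 1 (20.7% of 637), and with spike-in scaling 5 (40.2%). The filter on Negative Control spots and the use of the detection limit could not lower the count. Both miR-27 arms were above every Negative Control spot on both arrays, so these settings leave their ratios as they were. The members' median log2 ratio of 0.83 was above 0 under each alternative run: 0.21 with an offset of 50, 0.27 with an offset of 16, 0.22 with no scaling, 0.41 with the Negative Control mean as background, 0.57 with 75th percentile scaling, 1.15 without the adjustment, 1.64 with spike-in scaling, 0.99 above the Negative Control spots and 0.67 over all 9 with undetected members at the limit. Scaling by a factor moves these by its construction. The filter on Negative Control spots and the use of the detection limit change which members the median covers. For the other alternatives the cause was not tested. With undetected members at the limit, hsa-miR-27a-5p and hsa-miR-27b-5p both take the ratio of the arrays' limits (log2 ratio -0.72), which is not a measurement of either arm. Of 42 single ratios under other scalings 9 were at 0 or below, 6 of them of hsa-miR-24-2-5p, which is dim. Differences between 3p arms, recomputed under 3 settings chosen after seeing the data, turned to 0 or below in 3 of 30 cases, all among pairs within 2 SE. No paired analysis was possible because each condition has 1 array. The dim 5p arms are limited by signal over background.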
